A study of Mus musculus with 15 samples.

Results

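The 7 genes described here encode transcription factors that accompany the passage of pluripotent cells from the naive to the formative and primed states: Otx2, Pou3f1, Zic2, Sall2, Sox3, Foxd3 and Grhl2. They were chosen by name among the 21368 genes that the array's probes could be matched to through RefSeq accessions, and all 7 passed the filter on dim probes together with 14443 genes in all. Grhl2 was measured by 2 probes and each of the other genes by 1 probe.

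RNA from mouse embryonic stem cells was hybridised to single-colour Agilent microarrays in 5 groups of 3 samples, 15 arrays in all. The groups were wild-type cells, Nat1-null cells, and 3 groups of Nat1-null cells carrying a tetracycline-inducible transgene, so that every group but the wild-type lacks the gene named Nat1 in the labels. The transgene was Map3k3, a kinase upstream of the MAP kinase pathways, in cells kept without or with doxycycline (Dox), or EGFP, a fluorescent protein used as the control transgene, in cells kept with Dox. All cells grew on gelatin without a feeder layer being named. The dose and duration of Dox, the number of clones behind each line and whether a group's 3 samples were separate cultures are not stated in the labels. The p-values judge a difference against the spread of samples within groups, estimated over all 5 groups. That spread may be technical. Nat1 is the older name of Eif4g2, whose protein is related to the initiation factor eIF4G, and differs from the N-acetyltransferase gene of the same symbol.

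Naive embryonic stem cells resemble the epiblast before implantation. On leaving that state they switch on OTX2 and POU3F1 (also called OCT6), which with OCT4 bind enhancers of the post-implantation epiblast, and later ZIC2, SALL2, SOX3 and other factors that prepare germ layer choice. FOXD3 is needed for pluripotent cells and acts on enhancers during the same passage, and GRHL2 keeps epithelial genes active while other enhancers change. In mouse these factors are known as markers of epiblast-like cells and epiblast stem cells as well as regulators of them, and several are used again in the neural plate and neural crest.

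Array signals are given as log2 of the background-corrected signal minus the log2 of that array's 75th percentile, so that 0 is the 75th percentile and negative values lie below it. Between 42.7 and 53.9% of an array's probes were well above background, and the 75th percentiles were 556 to 696 signal units. All 8 embryonic stem cell markers looked up (Pou5f1, Sox2, Nanog, Zfp42, Sall4, Lin28a, Dppa5a and Tdgf1) were well above background on all arrays of each group. The probe for Eif4g2 read 3.97, 4.21 and 4.20 on the wild-type arrays and between 1.20 and 1.71 on the 12 null-background arrays, a difference of -2.57 for null against wild-type cells (SE 0.14, adjusted p = 2.15e-08). The probe for Map3k3 read -0.66, -0.54 and -0.83 in Map3k3 cells with Dox and -0.92, -0.59 and -1.03 without Dox (difference 0.17, SE 0.12, adjusted p = 0.279). Where these probes lie relative to the deleted part of Eif4g2 and to the Map3k3 transgene is not stated in the labels, so neither reading checks the labels.

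A gene was called when its limma p-value, adjusted over the 14443 genes by the Benjamini-Hochberg method, was under 0.05 and its difference was at least 1.5-fold, and only called genes are said to have risen or fallen. In Nat1-null cells against wild-type cells, 3 of the 7 factors fell (Sall2, Zic2 and Pou3f1), 1 rose (Foxd3) and Otx2, Sox3 and Grhl2 were not called. Of all genes tested 38.3% were called in that comparison, 18.3% higher and 20% lower, and their median difference was 0.10 against -0.46 for the factors. Scaling the arrays to the 75th percentile of the always-detected probes moved the median of all genes from 0.10 to -0.07 and the calls from 2640 higher and 2886 lower to 1812 higher and 3486 lower, and the 4 factors kept their calls and directions. The balance of calls over all genes turned the other way, to 2406 higher and 1531 lower, when each probe had to pass on all 15 arrays, and to 5309 higher and 3942 lower with no fold minimum. In Map3k3 cells with Dox against the same line without Dox, Otx2 and Sox3 fell and Sall2 rose, against a background of 18% of all genes called, 12% higher and 6% lower. In Map3k3 against EGFP cells, both with Dox, Otx2 and Sox3 fell and Pou3f1 rose, against 18.2% of all genes, 12.1% higher and 6.04% lower. With the array number of the labels as a block in the fit, limma also called Pou3f1 higher against the cells without Dox (adjusted p = 0.00205). That fit also called Sall2 higher against EGFP cells (adjusted p = 0.0109). Which of these comparisons called Pou3f1 and Sall2 therefore depended on the fit. The balance over all genes reversed when no fold minimum was set, to 2534 higher and 3425 lower against the cells without Dox and 2529 higher and 3688 lower against EGFP cells. Those comparisons share the Map3k3 arrays with Dox and are therefore not independent. The arrays of the groups compared did not overlap for 5 of 7 factors in null against wild-type cells, against 72.9% of all genes, for 4 in Map3k3 cells with against without Dox (51.4% of all genes), and for 4 against EGFP cells (50.6%).

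**Figure D1:**
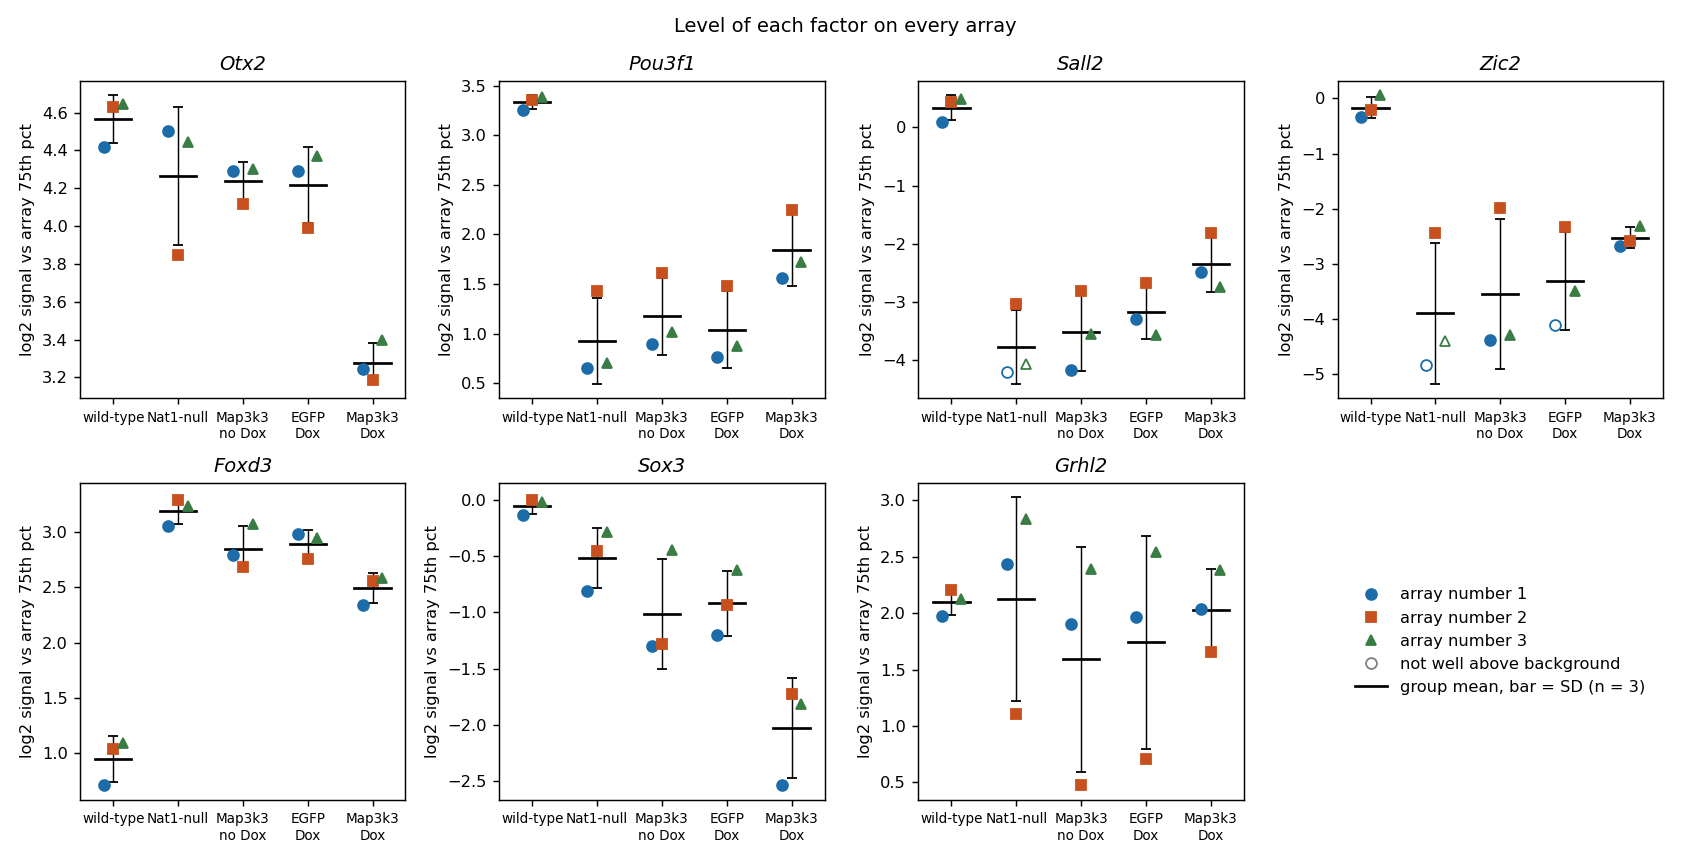
Level of each factor on every array, on the log2 scale set by the array's 75th percentile (vertical axis), for the 5 groups (horizontal axis). Symbols give the array number of the labels, open symbols were not well above background, lines are group means and bars are SD (n = 3). Pou3f1, Sall2 and Zic2 are highest in the wild-type cells and Foxd3 is lowest there, while Otx2 and Sox3 are lowest in Map3k3 cells with Dox.

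The promoter reference used here (build GRCm38.p6) held windows for 3 of the 7 factors, namely Foxd3, Sall2 and Otx2. The windows below hold the 250 bases before a start, on the gene's strand. The choice of genes follows from which factors had windows. Of the Otx2 windows, the one with a match to the OTX letters named below is shown. The first is Foxd3 at chr4:99656049-99656298, plus strand; the next are the starts of Sall2 at chr14:52328671-52328920 and chr14:52316324-52316573, minus strand; the last is 1 of 4 starts of Otx2, at chr14:48665110-48665359, minus strand. Capitals mark a TATAAA match in the first Sall2 window, 145 to 140 bases before the start. They also mark the reverse complement of TAATCC, the letters that OTX factors prefer, in the Otx2 window, 211 to 206 bases before the start.
Foxd3: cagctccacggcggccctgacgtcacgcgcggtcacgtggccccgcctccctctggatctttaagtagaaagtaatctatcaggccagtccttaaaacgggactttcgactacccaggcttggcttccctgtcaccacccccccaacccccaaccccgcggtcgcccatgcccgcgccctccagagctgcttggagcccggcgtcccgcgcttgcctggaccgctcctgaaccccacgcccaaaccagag
Sall2, distal start: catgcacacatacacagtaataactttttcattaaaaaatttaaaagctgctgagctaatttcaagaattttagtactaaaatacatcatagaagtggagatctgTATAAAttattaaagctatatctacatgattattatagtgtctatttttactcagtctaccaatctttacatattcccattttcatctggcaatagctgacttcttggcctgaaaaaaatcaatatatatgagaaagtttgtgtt
Sall2, proximal start: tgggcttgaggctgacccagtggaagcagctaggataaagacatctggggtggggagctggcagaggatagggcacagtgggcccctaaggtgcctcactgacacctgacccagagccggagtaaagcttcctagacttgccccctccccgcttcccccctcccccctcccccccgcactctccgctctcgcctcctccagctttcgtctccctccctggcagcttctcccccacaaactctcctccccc
Otx2: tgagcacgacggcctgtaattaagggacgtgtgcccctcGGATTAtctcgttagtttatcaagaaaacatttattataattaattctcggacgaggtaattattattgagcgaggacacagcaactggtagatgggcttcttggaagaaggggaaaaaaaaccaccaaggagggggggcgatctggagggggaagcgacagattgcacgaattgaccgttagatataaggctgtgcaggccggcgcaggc
The Foxd3 window held 21 CpG dinucleotides and 65.6% G and C, against medians of 6 and 52.4% over the 32851 windows in that reference, which does not cover every gene. The distal Sall2 window held 0 CpG and 28% G and C, and the proximal window 6 and 64.4%. The array has 1 Sall2 probe and does not tell these starts apart. Searched on both strands in 250 bases, TAATCC occurred in 6.25% of all windows and TATAAA in 12.4%. The AP-1 letters TGANTCA (6.75% of all windows), the octamer ATGCAAAT (1.60%), the TCF letters CTTTGA (13.8%), the GRHL letters AACCGGTT (0.116%) and the GC box GGGCGG (32.7%) were not in any of the 7 windows of these 3 genes. Among the 4 Otx2 windows searched, only the window shown held the OTX match. The shares above are per window, so a gene with 4 windows has more room for a match. Another Otx2 window, at chr14:48667645-48667894, held the same match as the first Sall2 window and is not shown. The motifs do not overlap each other in the windows shown, and a match describes letters, not binding.

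Otx2, a homeodomain factor that opens the formative programme, was far above background on every array. Its level was 4.42, 4.63 and 4.65 in wild-type cells and 4.50, 3.85 and 4.45 in null cells. The ranges of these groups overlapped, and the difference of -0.30 (SE 0.16, adjusted p = 0.12) was not called. In Map3k3 cells the level was 4.29, 4.12 and 4.30 without Dox and 3.24, 3.19 and 3.40 with Dox, and in EGFP cells it was 4.29, 3.99 and 4.37. Every array of Map3k3 cells with Dox lay below every other array of the series. Otx2 fell 1.95-fold against the same cells without Dox (log2 difference -0.96, SE 0.16, adjusted p = 0.000576). Against EGFP cells it fell 1.92-fold (-0.94, adjusted p = 0.000621). Against wild-type cells it fell 2.44-fold (-1.29, adjusted p = 2.06e-05). Each of these 3 calls held under every alternative setting tried, 21, 22 and 20 of them in this order, with differences between -1.36 and -0.86.

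Pou3f1, the POU-domain partner of OTX2 in epiblast-like cells, fell in the null cells. Its level was 3.25, 3.35 and 3.39 in wild-type cells and 0.66, 1.43 and 0.70 in null cells, without overlap, a 5.28-fold fall (-2.40, SE 0.27, adjusted p = 8.26e-06). Map3k3 cells without Dox read 0.90, 1.62 and 1.01, and EGFP cells 0.77, 1.48 and 0.87. Map3k3 cells with Dox read 1.56, 2.25 and 1.72, above every EGFP array, while array 1 lay just below array 2 of the cells without Dox. Pou3f1 rose 1.74-fold against EGFP cells (0.80, SE 0.27, adjusted p = 0.0294). That call held under 15 of 22 alternatives. It was lost within the slide that held 3 Map3k3 and 2 EGFP arrays (0.72, adjusted p = 0.139), with the slide as a block (adjusted p = 0.0887), and without Map3k3 array 2 (0.60, adjusted p = 0.112), EGFP array 1 (0.67, adjusted p = 0.103) or EGFP array 3 (0.72, adjusted p = 0.0887), and when only these groups (adjusted p = 0.0665) or only the 12 null-background arrays without a block (adjusted p = 0.0535) were fitted. Against the cells without Dox the difference was 0.67 (SE 0.27, adjusted p = 0.0638) and was not called. With the array number as a block, which the pairing of the null-background arrays warrants, the same difference was called (adjusted p = 0.00205). That fit also applied the block to the wild-type arrays, which were not paired by number. A block on the 12 null-background arrays alone, an unplanned alternative, called it as well (adjusted p = 2.93e-05). Pou3f1 stayed below the wild-type level in Map3k3 cells with Dox, by 2.80-fold (-1.49, adjusted p = 0.000405).

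Zic2, a zinc finger factor of the primed epiblast and the neural plate, was near the 75th percentile in wild-type cells, with -0.33, -0.21 and 0.05. In null cells it read -4.84, -2.44 and -4.40 and was well above background on 1 of 3 arrays. Under the main processing this was a fall of at least 11.5-fold (-3.73, SE 0.70, adjusted p = 0.000572). The fall was called under all 18 alternatives, with differences between -4.45 and -2.33. The null arrays lay far below the wild-type arrays, and array 2 stood above the other null arrays. Map3k3 cells without Dox read -4.37, -1.98 and -4.29, and EGFP cells -4.10, -2.34 and -3.48. With Dox, Map3k3 cells read -2.68, -2.58 and -2.30, a narrow range that array 2 of each other null-background group exceeded or fell within. Against the cells without Dox the difference of 1.02 (SE 0.70, adjusted p = 0.264) was not called, nor was that of 0.78 relative to EGFP cells (adjusted p = 0.396). Leaving out array 2 of the cells without Dox gave 1.81 (adjusted p = 0.0422). Leaving array 2 out of all 4 null-background groups, an alternative chosen after seeing the data, gave 1.84 (adjusted p = 0.000564) and 1.30 (adjusted p = 0.00297). Against wild-type cells Zic2 was lower by 5.13-fold in Map3k3 cells with Dox (-2.36, adjusted p = 0.0113), a call lost with the slide as a fixed block estimated through the EGFP arrays (-2.62, adjusted p = 0.143).

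Sall2, a zinc finger factor of the spalt family expressed in the primed state and the neural tube, fell in the null cells to near background. It read 0.10, 0.44 and 0.48 in wild-type cells and -4.19, -3.03 and -4.06 in null cells, well above background on 1 of 3 null arrays. Under the main processing this was a fall of 17.2-fold (-4.10, SE 0.39, adjusted p = 2.47e-06), and the lower bound gave the same value. The fall was called under all 18 alternatives, with differences between -4.50 and -2.78. Map3k3 cells without Dox read -4.17, -2.81 and -3.54, and EGFP cells -3.28, -2.67 and -3.57. Map3k3 cells with Dox read -2.48, -1.81 and -2.75, all above the cells without Dox and overlapping the EGFP cells. Sall2 rose 2.24-fold against the cells without Dox (1.16, SE 0.39, adjusted p = 0.0332). The call ended without array 1 (0.83, adjusted p = 0.132) or 3 (1.14, adjusted p = 0.0774) of the cells without Dox, without array 1 (1.23, adjusted p = 0.0575) or 2 (0.89, adjusted p = 0.121) of the cells with Dox, and with the slide row as a block (0.89, adjusted p = 0.188). It also ended with no filter on dim probes (adjusted p = 0.0527), with only these groups in the fit (adjusted p = 0.0778), with the 12 null-background arrays alone (adjusted p = 0.0571) and with normexp background correction, which lowered the difference to 0.52 (adjusted p = 0.0509). Against EGFP cells the difference was 0.83 (adjusted p = 0.11) and was not called, whereas the fit with array number as a block called it (adjusted p = 0.0109). The same block on the 12 null-background arrays alone, an unplanned alternative, also called it (adjusted p = 0.00507). Sall2 stayed 6.42-fold below the wild-type level in Map3k3 cells with Dox (-2.68, adjusted p = 8.38e-05).

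Sox3, a SOXB1 factor of the epiblast and early neural tissue, was highest in wild-type cells, at -0.14, -0.0022 and -0.02. Null cells read -0.81, -0.45 and -0.29, lower on all 3 arrays, but the difference of -0.46 (SE 0.26, adjusted p = 0.141) was not called. It was called only with scaling to always-detected probes (-0.63, adjusted p = 0.0483). Map3k3 cells read -1.30, -1.28 and -0.45 without Dox and -2.53, -1.73 and -1.81 with Dox, and EGFP cells read -1.21, -0.94 and -0.62. The Map3k3 arrays with Dox were the lowest of the series. Sox3 fell 2.02-fold against the cells without Dox (-1.01, SE 0.26, adjusted p = 0.00909), with adjusted p = 0.0611 when only these groups were fitted. It fell 2.15-fold against EGFP cells (-1.10, adjusted p = 0.00533), with -0.95 and adjusted p = 0.0786 within the slide that holds both groups. Against wild-type cells the fall was 3.92-fold (-1.97, adjusted p = 3.81e-05).

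Foxd3, a forkhead factor expressed in the epiblast and the neural crest, was the only factor that rose in null cells by the probe that stands for its gene. It read 0.71, 1.04 and 1.09 in wild-type cells and 3.06, 3.29 and 3.24 in null cells, a 4.76-fold rise (2.25, SE 0.13, adjusted p = 3.71e-08). Map3k3 cells read 2.79, 2.68 and 3.08 without Dox and 2.34, 2.56 and 2.59 with Dox, and EGFP cells read 2.98, 2.75 and 2.95. All Map3k3 arrays with Dox lay between the wild-type arrays and the other null-background arrays. The difference from the cells without Dox (-0.36, SE 0.13, adjusted p = 0.0444) and that from EGFP cells (-0.40, adjusted p = 0.0259) passed the p threshold but were under 1.5-fold, and so were not called. Against wild-type cells Foxd3 was still higher by 2.93-fold (1.55, adjusted p = 7.39e-07). The rise in null cells was called under all 19 alternatives, with differences between 2.08 and 2.32.

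Grhl2, a grainyhead factor that maintains epithelial enhancers, was not called in any comparison. Its brighter probe read 1.98, 2.20 and 2.13 in wild-type cells and 2.44, 1.11 and 2.83 in null cells, a difference of 0.02 (SE 0.57, adjusted p = 0.976). Map3k3 cells read 1.90, 0.47 and 2.40 without Dox and 2.04, 1.65 and 2.38 with Dox, and EGFP cells read 1.97, 0.71 and 2.55. Within each null-background group array 2 was the lowest, and the groups overlapped throughout. With Dox against without Dox the difference was 0.43 (SE 0.57) and against EGFP cells 0.28, each smaller than the standard deviation of 0.90 in the null group. The dimmer Grhl2 probe read -3.67, -3.70 and -3.32 in wild-type cells and -2.69, -2.53 and -2.49 in null cells. On that probe the null cells were higher by 0.99 (SE 0.37, adjusted p = 0.039 over all 29782 passing probes), so the 2 probes of the gene disagreed in that comparison. The number-2 pattern of the brighter probe did not appear on the dimmer probe in null cells, where array 1 was the lowest, and did in the other 3 null-background groups.

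In Map3k3 cells with Dox against wild-type cells, which differ in Eif4g2, the transgene, Dox and slide at once, 5 factors were lower and Foxd3 was higher, and Grhl2 (-0.08) was not called. The background there was 38.3% of all genes called, 18.6% higher and 19.7% lower, and the arrays did not overlap for 6 of 7 factors and 70.9% of all genes. Slide and group cannot be told apart in this comparison except through the EGFP cells, whose arrays lay on both slides. Ordered by level, Pou3f1, Sall2 and Zic2 ran from wild-type cells, with no overlap to the next group, to Map3k3 cells with Dox and then to the other null-background groups, with overlap between each group and the next. Foxd3 ran the other way. Otx2 and Sox3 had a different order, with Map3k3 cells with Dox apart at the bottom.

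**Figure D2:**
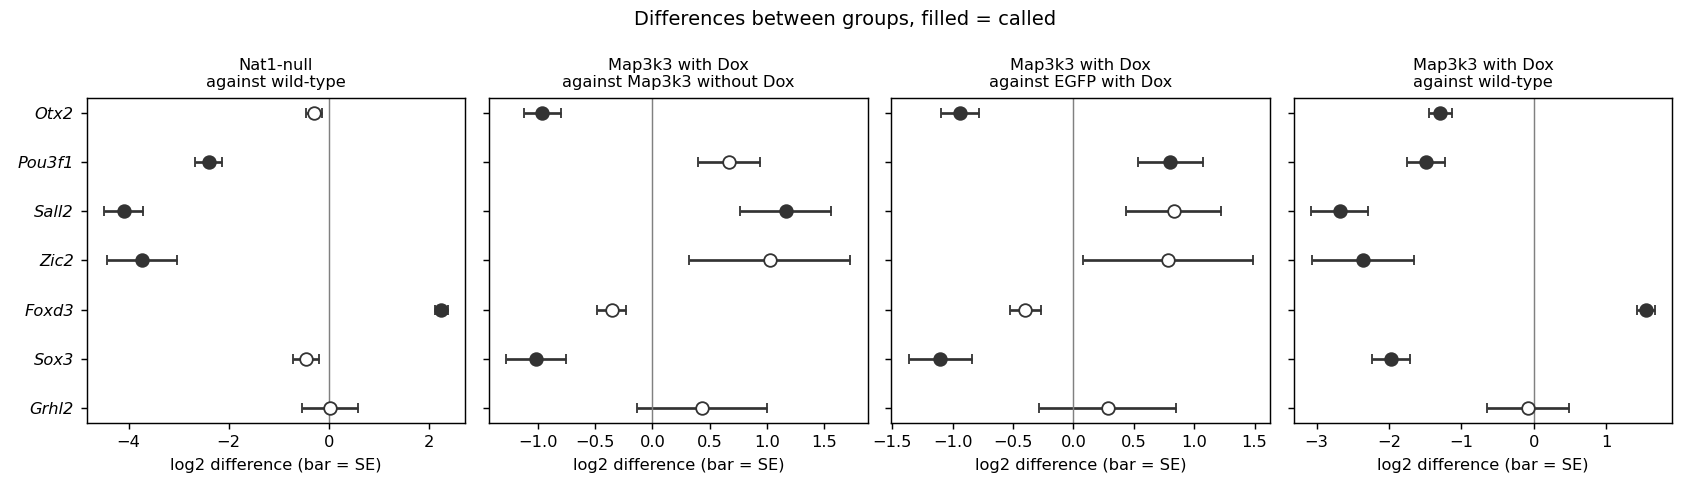
Log2 difference of each factor (horizontal axis) in the 4 comparisons in which factors were called; bars are SE from limma, and filled points were called. Sall2, Zic2 and Pou3f1 lie left of 0 and Foxd3 right of it in null against wild-type cells; Otx2 and Sox3 lie left of 0 in the 3 comparisons of Map3k3 cells with Dox.

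No factor was called in the comparisons that set the control lines against the null cells. In EGFP cells with Dox against null cells 0.00692% of all genes were called, which is 1 gene (Tfap2a, named after its value was seen), and 1095 genes had an unadjusted p under 0.05. In Map3k3 cells without Dox against null cells limma called 0% of genes, and 2216 had an unadjusted p under 0.05. With array number as a block the latter count was 42 in the fit to 15 arrays. The differences of the 7 factors in these comparisons had medians of -0.05 and -0.03. Arrays did not overlap for 1 of 7 factors in the former (12% of all genes) and 0 of 7 in the latter (21.8%).

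Arrays that carry the same number in the null-background groups deviated together. In those groups array 2 was the highest of 3 for Pou3f1 and Sall2 and the lowest for Otx2 and Grhl2, in all 4 groups. Over all genes tested, array 2 was the highest in all 4 groups for 15.4% and the lowest for 15.3%, 30.7% together. Zic2 followed the same pattern in 3 groups, and in Map3k3 cells with Dox its array 2 was in the middle. Differences taken within an array number were therefore tighter for some factors. For Pou3f1 the difference with Dox minus without Dox was 0.66, 0.63 and 0.71 at numbers 1, 2 and 3, and Map3k3 minus EGFP was 0.79, 0.77 and 0.85. The same differences for Sall2 were 1.69, 1.00 and 0.80, and 0.80, 0.86 and 0.82. Zic2 did not share a sign: it gave 1.69, -0.61 and 1.99, and 1.42, -0.25 and 1.18 relative to EGFP. Sox3 was lower at each number, by -1.23, -0.44 and -1.36 and by -1.33, -0.79 and -1.19. What the array number stands for is not stated in the labels and was not tested. The values that bear on it are the fits with the number as a block or with number 2 left out, and the correlations of deviations given with the processing.

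**Figure D3:**
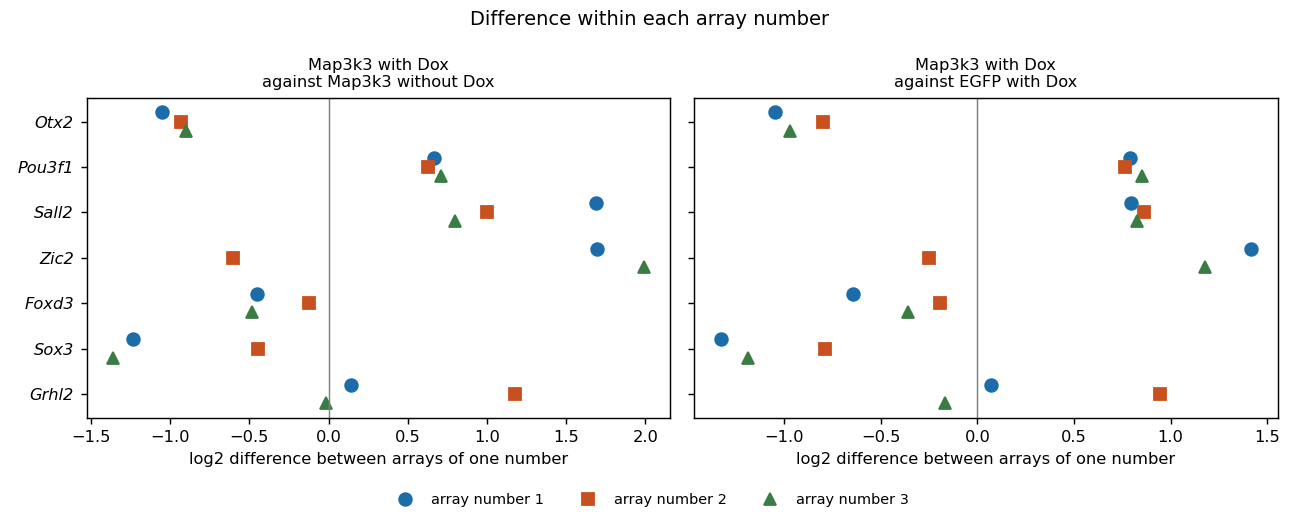
Log2 difference between arrays of the same number (horizontal axis) for each factor, Map3k3 with Dox minus Map3k3 without Dox (left) and minus EGFP with Dox (right); symbols give the number. Pou3f1 lies between 0.63 and 0.85 at every number, and Zic2 is negative at number 2 alone.

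Across the 15 arrays, Pou3f1 and Sall2 correlated at r = 0.99, Pou3f1 and Zic2 at 0.95, and Sall2 and Zic2 at 0.94. Foxd3 ran against all of these, with r = -0.93, -0.94 and -0.87. Otx2 and Sox3 correlated at 0.83, and Otx2 with Pou3f1, Sall2 and Zic2 at 0.05 to 0.14. These values describe 15 arrays that fall into 5 groups, so they mostly follow the group means shown above. Among 4706 genes whose group means spanned at least 1 log2 unit, the genes most like Otx2 over the 15 arrays were Ppp1r1a (r = 0.95), Ephx2 (0.95) and Tekt1 (0.95). Those most like Pou3f1 were Them4 (0.99), Map1b (0.99), which encodes a microtubule-associated protein, and Fam89a (0.98). Sall2 was matched most closely by Mcrip1 (0.99), Rgs10 (0.98) and Snn (0.98). Zic2 was matched by Tmem229b (0.99), by its paralog Zic5 (0.97), which lies next to it in the genome, and by Mlycd (0.97). For Foxd3 the closest were Dhx16 (0.99), the homeobox gene Gbx2 (0.99) and Usp1 (0.99), and for Sox3 Dapp1 (0.94), Zbed5 (0.93) and Rasgrp2 (0.92). Grhl2 was followed by Il17re (0.95), Ovol1 (0.91), an epithelial zinc finger gene, and Slc26a9 (0.91). Over the 5 group means these last values were 0.78, 0.73 and 0.86, below those over arrays, and the group means of Grhl2 spanned 0.53 while its SD within a group reached 1.00.

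Of 14 other genes of the formative and primed programme, 8 fell and 2 rose in null against wild-type cells, with a median of -2.03 against 0.10 for all genes. Of all genes 20% were called lower and 18.3% higher there. The growth factor gene Fgf5 fell at least 16.3-fold, the cadherin gene Cdh2 32.1-fold, the neural progenitor factor gene Sox11 at least 17.9-fold and the kinase gene Pim2 13.4-fold. Etv4, an ETS factor gene downstream of FGF signalling, rose 3.53-fold and Tcf15 rose 2.06-fold; both are named after their values were seen. In Map3k3 cells with Dox against without Dox 6 of the 14 rose and none fell (median 0.31 against -0.09 for all genes, of which 12% were called higher). Sox11 rose 12.6-fold, Sox4 10.2-fold, Fgf5 at least 3.67-fold and Cdh2 9.30-fold. Against EGFP cells 5 rose and none fell (median 0.28), where 12.1% of all genes were called higher. Against wild-type cells, 6 were lower and 2 were higher in Map3k3 cells with Dox (median -0.51), Pim2 13.5-fold lower and Fgf5 7.43-fold lower among them. Thus Otx2 and Sox3 fell in the comparisons in which 6 and 5 genes of this list rose.

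Of 22 paralogs of the factors 14 were tested; Otx1, Crx, Pou3f2, Pou3f3, Pou3f4, Zic4, Foxd1 and Foxd2 did not pass the filter. In null against wild-type cells 6 rose and 2 fell (median 0.56 against 0.10 for all genes, of which 38.3% were called). Tfcp2l1, a grainyhead-related factor of the naive state, rose 9.11-fold, Sox2, the SOXB1 factor of pluripotent cells, 3.30-fold and Sall3 at least 1.36-fold, and Zic5 fell at least 9.08-fold. Sall3 was not well above background on any wild-type array. Its call used the log2 difference of 2.33, while its lower bound is under 1.5-fold. Zic5 and Zic2 thus both fell. In Map3k3 cells with Dox against without Dox 2 fell and none rose, where 18% of all genes were called. Sox2 fell 1.59-fold and Grhl3 fell 1.51-fold. Against EGFP cells 1 rose (Sall3, which was not well above background on any EGFP array) and 2 fell, Foxd4 by at least 1.53-fold and Grhl3 by 1.60-fold. Leaving out single arrays moved the number of called paralogs to between 1 and 3 in the former and between 1 and 4 in the latter comparison. Against wild-type cells 4 were higher and 2 lower, where 18.6% of all genes were called higher and 19.7% lower.

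Of 13 epithelial genes known as GRHL2 targets, 6 fell and 2 rose in null against wild-type cells (median -0.92 against 0.10 for all genes, of which 38.3% were called). The splicing regulator gene Esrp1 fell 4.06-fold and the tight junction gene Cldn6 3.99-fold, and the protease inhibitor gene Spint1 rose 3.17-fold. With Dox against without Dox, 7 of the 13 rose in Map3k3 cells and none fell (median 0.83 against -0.09 for all genes). Of all genes 12% were called higher and 6% lower there. Cldn3 rose 11.4-fold, Cldn6 9.82-fold and Cldn4 5.22-fold. Against EGFP cells 7 rose as well (median 0.83, with 12.1% of all genes called higher). Against wild-type cells 6 were higher and 2 lower (18.6% and 19.7% of all genes). The summed signal of trophectoderm markers, another epithelial cell type, moved with these genes, and Grhl2 itself was not called.

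**Figure D4:**
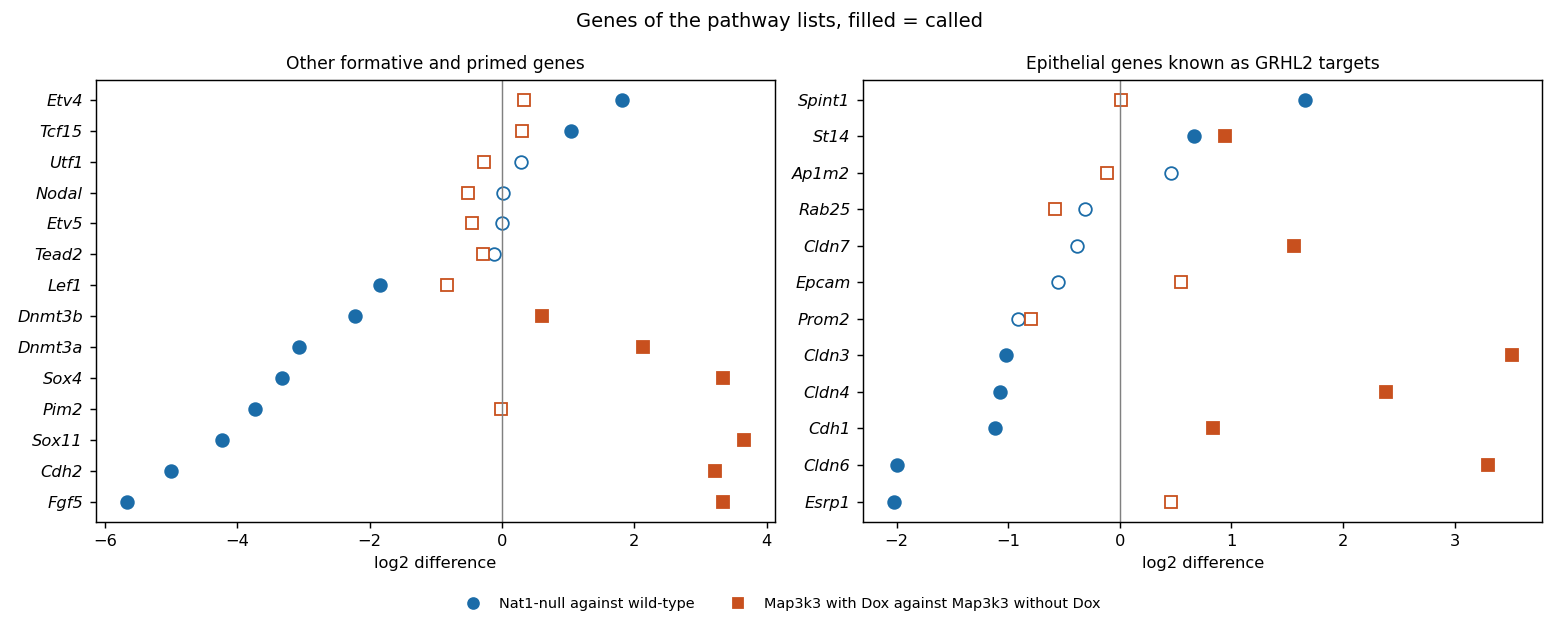
Log2 difference (horizontal axis) of the 14 other formative and primed genes (left) and 12 of the 13 epithelial genes (right) in null against wild-type cells (circles) and Map3k3 cells with against without Dox (squares); filled symbols were called. Fgf5, Cdh2, Sox11 and Sox4 lie left of 0 for circles and right of it for squares, as do Cldn3, Cldn4, Cldn6 and Cdh1.

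Of 12 regulators of the exit from the naive state, most of them ubiquitous factors, 2 rose and 1 fell in null against wild-type cells (median 0.25). Of all genes 38.3% were called there, with a median of 0.10. Fnip2 rose 1.60-fold, Zfp281 rose 1.55-fold and Fnip1 fell 1.52-fold. With Dox against without Dox, and against EGFP cells, 1 gene fell in each, Fnip2 by 1.71-fold and 1.52-fold, and the medians were -0.06 and -0.08. The shares of all genes called in these comparisons were 18% and 18.2%. Against wild-type cells Fnip1 and Flcn were lower, by 2.13-fold and 1.76-fold, and Zfp706 was higher by 1.63-fold. Leaving out single arrays moved the count between 1 and 3 in null against wild-type cells and between 0 and 2 in both Map3k3 comparisons. In the control-line comparisons no gene of the 4 lists was called.

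Markers of other cell types moved with the groups, and in bulk samples fewer cells of a type and less RNA per cell cannot be told apart. The counts of called markers below stand beside these shares of all genes. In null against wild-type cells 18.3% were called higher and 20% lower, and with Dox against without Dox 12% higher and 6% lower. Summed over 8 neuroectoderm markers, the linear signal relative to the 75th percentile was 30.9 to 31.7 in wild-type cells and 5.70 to 9.44 on all null-background arrays; in null cells Pax6, Neurog1, Neurod1 and Hes5 were not well above background on any array, and 5 of 7 tested markers fell. The 9 fibroblast or feeder markers summed to 83.1 to 88.1 in wild-type cells, 5.59 to 5.80 in null cells and 9.71 to 12.5 in Map3k3 cells with Dox, where 3 of 7 rose against the cells without Dox and 1 fell; Col1a2, Acta2, Lum and Dcn were not above background on any null array. The 8 trophectoderm markers summed to 162 to 169 in wild-type cells, 10.5 to 24.0 in null cells and 291 to 344 in Map3k3 cells with Dox, where 6 of 7 rose against the cells without Dox. Krt18, the brightest of the trophectoderm markers, weighs most in their sums. The 8 primitive endoderm markers summed to 1.95 to 2.10, 1.08 to 1.26 and 6.01 to 9.00 in the same groups, and with Dox 6 of 7 rose and 1 fell. The 5 neural crest markers, a cell type that also uses Foxd3, summed to 0.498 to 0.551 in wild-type cells, 0.315 to 0.378 in null cells, 0.278 to 0.321 in Map3k3 cells without Dox and 0.396 to 0.530 with Dox, where 1 of 3 tested markers rose, with Pax7 and Tfap2b not above background on any array of these groups. The 6 mesoderm markers summed to 8.42 to 10.2 in wild-type cells and 10.1 to 10.7 in null cells, and to 9.43 to 11.0 without Dox and 10.1 to 11.1 with Dox in Map3k3 cells. Kdr, the brightest of them (mean log2 3.05 in wild-type and 3.29 in null cells), weighs most in these sums. In null cells T fell, and T, Mixl1 and Mesp1 were not well above background on any array. With Dox 3 of 5 tested markers were called higher. Among these, T was not above background on any array with or without Dox, and the groups overlapped for Mesp1. The 6 epidermis markers summed to 8.34 to 9.61 in wild-type cells, 9.64 to 11.6 in null cells, 9.32 to 11.4 in Map3k3 cells without Dox and 13.3 to 16.0 with Dox, where 2 of 5 tested markers rose. The 8 embryonic stem cell markers summed to 511 to 543 in wild-type cells, 859 to 875 in null cells and 631 to 677 in Map3k3 cells with Dox. The part of these differences in the levels of the 7 factors was not tested.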

How the data were processed

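The authors scanned the arrays and read them with Feature Extraction 11.5.1.1 (protocol GE1_1105_Oct12), per the file headers. Each deposited array table gave the intensity of every spot after the software's own background correction (processed signal). Here its log2 was averaged over a probe's spots, outlier spots left out, and reduced by the log2 of the 75th percentile over all non-control spots. The authors' deposited log2 values correlated at 1 with these on every array and differed by a constant of 0.15 to 0.19 per array, and they served as an alternative. Probes were named through RefSeq accessions (28331 of 55681 probes). A probe was kept when the 3 arrays of some group all had it well above background, and the brightest passing probe stood for its gene.

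One limma 3.58.1 model (R 4.3.3, checked on simulated data) with a mean per group was fitted to 15 arrays and 14443 genes, with 10 residual degrees of freedom; its moderated tests are two-sided. SD is over 3 arrays. Where a probe was not well above background throughout the dimmer group, the fold is a lower bound ("at least"), taken on each array from the higher of the probe's own value and the lowest value of any probe that was. Such a bound holds for the main processing only, and other settings gave smaller differences for Sall2 and Zic2. Calls used the difference itself, not the bound. The number of arrays limits the precision. Slide 1 held 8 arrays (all Map3k3 arrays and EGFP 1 and 2) and slide 2 held 7, with wild-type and null cells in different rows of slide 2.

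Equal array numbers paired the null-background groups: deviations from group means correlated at 0.154, 0.318 and 0.252 for Map3k3 with and without Dox, and at 0.101, 0.316 and 0.193 for Map3k3 and EGFP cells. For null cells and Map3k3 cells without Dox, which lay on different slides, the values at numbers 1, 2 and 3 were 0.270, 0.617 and 0.411. For null and EGFP cells they were 0.251, 0.561 and 0.383. Equal numbers did not pair the wild-type arrays (-0.03 to 0.01 with null cells). The fit without the block is the main one. Named are the 7 factors, the 3 genes most like each, and up to 4 called genes of a list by size of change; genes that this rule names but that are not reported here were left out of the text and figures and stay in the counts. The factors, lists and tests were chosen with earlier results of these data known. Alternatives changed the background correction, scaling, dim-probe filter, fold minimum, probe rule, arrays fitted, slide, slide row, array number and single arrays.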

Additional observations from a re-analysis of the deposited data

How the results depend on the processing

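The 7 factors over 6 comparisons gave 798 alternative values with the same direction and call as the main one, 19 that lost a call, 13 that gained one and 40 of the opposite sign, all 40 of these in comparisons that were not called. Normexp was run on the median spot signal, since the tables used here hold no mean signal; the effect of that substitution was not tested. Signals near background limit Zic2 and Sall2 in the null-background cells. Blocks on array number changed no call of a factor other than those given for Pou3f1 and Sall2.

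For Grhl2, null against wild-type cells gave -0.0028 with normexp, -0.12 with quantile normalization, -0.15 with scaling to always-detected probes and -0.0018 with the authors' values; Map3k3 with Dox against wild-type cells gave 0.21 with the mean of all passing probes, 1.13 with the slide as a fixed block, 0.33 with the slide row as a block and 0.11 without number 2, which gave -0.048 against EGFP cells. For EGFP against null cells, the slide as a block and the values within slide 2 both gave 0.10 for Otx2, -0.054 for Pou3f1 and 0.42 for Grhl2. For Map3k3 without Dox against null cells, Otx2 gave 0.036 with quantile normalization and 0.019 with always-detected probes, and the slide block gave 0.20 for Otx2, -0.0037 for Pou3f1, -0.34 for Sall2 and 0.67 for Grhl2. The cause was not tested.

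Leaving out single arrays gave ranges across 0 for Grhl2 in each comparison: -0.33 to 0.53 (null against wild-type), -0.12 to 0.84 (Map3k3 with against without Dox), -0.23 to 0.69 (against EGFP), -0.26 to 0.11 (against wild-type), -0.89 to 0.13 (EGFP against null) and -1.04 to 0.023 (Map3k3 without Dox against null). The same held in EGFP against null cells for Otx2 (-0.26 to 0.069) and Pou3f1 (-0.11 to 0.36), and in Map3k3 without Dox against null cells for Otx2 (-0.24 to 0.089), Sall2 (-0.094 to 0.62) and Zic2 (-0.44 to 1.07).

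Counts of all genes called moved by over 1.5 times as follows. With no fold minimum they were 9251, 5959, 6217 and 8910 in the comparisons null against wild-type, Map3k3 with against without Dox, against EGFP and against wild-type, and 1736 for Map3k3 with against without Dox when each probe had to pass on all 15 arrays. For EGFP against null cells, main count 1, they were 2 (normexp), 0 (only these groups, or 12 arrays with no replicate block), 21 (slide block), 3 (row block), 27 (within slide 2), 13 (replicate block, 12 arrays), 67 (without number 2) and 1 to 7 (single arrays left out). For Map3k3 without Dox against null cells, main count 0, they were 2 (normexp or row block), 14 (all 15 arrays above background), 42 (replicate block, 15 arrays), 67 (replicate block, 12 arrays), 13 (slide block), 112 (without number 2) and 0 to 2 (single arrays left out).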
